A study of Mus musculus with 2 samples.

Results

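The circadian clock was examined in the wall of the mouse aorta through 10 of its genes: the activators Arntl and Clock, the repressors Per1, Per2, Per3, Cry1, Cry2, Nr1d1 and Nr1d2, and the output gene Dbp. They were chosen by name as 10 of 27389 genes or transcripts on the array, and a member's probes were those that carry its symbol in the array files, 18 of 41174. RNA from the atherosclerosis-prone aortic arch (the root, the arch and the proximal 2 mm of the thoracic aorta) was compared with RNA from the resistant central thoracic aorta (the following 6 mm). The mice were wild-type C57Bl/6 animals aged 16 weeks, 3 males and 3 females, whose aortas had been perfused with a detergent to strip the endothelium. Each region was 1 pool of RNA from these 6 mice, and both pools were hybridised together on 2 two-colour arrays. The dyes were swapped between these, with Cy5 marking the arch on array 1 and Cy3 marking it on array 2. The time of day at which the tissue was taken is not given in the sources used here.

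In the clock, a heterodimer of CLOCK and BMAL1, the product of Arntl, binds E-boxes and switches on the Per and Cry genes, whose proteins return to the nucleus and inhibit the heterodimer. The same heterodimer drives Nr1d1 and Nr1d2, which encode REV-ERB alpha and beta and repress Arntl, and Dbp, a transcription factor that binds D-boxes in further output genes. Transcripts of Arntl and of Dbp, Nr1d1 and the Per genes therefore peak at opposite times of day, and this clock is known to run in vascular smooth muscle.

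Short regulatory sites were looked up for these genes in RefSeq promoter windows (build GRCm38.p6, 250 bases before to 50 bases after each annotated start). The table held 13 windows for 9 of the 10 members, and none for Per2. Letters searched on both strands were the E-box CACGTG, which reads the same on either strand, its variant CACGTT, the D-boxes TTATGTAA and TTACGTAA, the ROR and REV-ERB elements TAGGTCA and TGGGTCA, and the cyclic AMP element TGACGTCA. An E-box was present in 2 of the 13 windows, 1 of Per1 and 1 of Cry1, against 7.15% of all 32851 windows. Its variant was in 3 of the 13, of Cry1, Cry2 and Nr1d1, against 4.68%. These counts are small and were not tested. The D-box TTATGTAA occurred at 2 positions in Per3, against 0.938% of all windows with at least 1 match, and TAGGTCA in 1 Arntl window, against 2.61%. TGGGTCA, TTACGTAA and TGACGTCA, found in 3.98%, 0.119% and 1.79% of all windows, were in no member's window. No matches overlapped, and a match is a description of these letters only. Sequence outside the windows was not searched, so a member without a match may hold the site elsewhere. The stretches with a match are printed 5′ to 3′ on the gene's strand, with the matched letters in capitals. Those of Per1, Cry1, Cry2 and Nr1d1 show repressors with an E-box or its variant in these windows. The Per3 and Arntl stretches show the other matches, which are not E-boxes. Positions are counted from the annotated start.
Per1, chr11:69098729-69098838, plus strand, bases −220 to −111, 1 E-box: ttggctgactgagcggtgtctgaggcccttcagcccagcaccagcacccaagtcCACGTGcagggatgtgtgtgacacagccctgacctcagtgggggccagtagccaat
Cry1, chr10:85185055-85185164, minus strand, bases −110 to −1, 1 E-box and 1 variant on the opposite strand: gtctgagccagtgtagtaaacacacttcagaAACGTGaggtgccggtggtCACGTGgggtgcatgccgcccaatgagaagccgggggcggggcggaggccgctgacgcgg
Cry2, chr2:92434180-92434289, minus strand, bases −220 to −111, 1 variant on the opposite strand: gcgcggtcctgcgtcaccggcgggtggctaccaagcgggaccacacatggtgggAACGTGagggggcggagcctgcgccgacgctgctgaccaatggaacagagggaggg
Nr1d1, chr11:98775378-98775477, minus strand, bases −100 to −1, 1 variant on the opposite strand: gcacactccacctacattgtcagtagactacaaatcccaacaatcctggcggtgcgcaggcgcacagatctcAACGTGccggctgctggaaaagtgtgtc
Per3, chr4:151044786-151044895, minus strand, bases −230 to −121, 2 D-boxes: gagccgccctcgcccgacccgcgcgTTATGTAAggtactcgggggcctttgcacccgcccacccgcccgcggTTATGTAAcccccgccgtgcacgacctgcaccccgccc
Arntl, chr7:113207531-113207555, plus strand, bases 21 to 45, 1 ROR and REV-ERB element: aggcagaaagTAGGTCAgggacgga

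At each gene's brightest probe, the clock transcripts differed little between the regions. None of the 10 members reached the call rule, a 1.5-fold difference that each array shows the same way, and this also held for a 1.3-fold rule. Among all 21366 genes measured, 0.257% were called higher in the arch and 0.229% lower, 0.487% in all, and by probe 0.393%. Beside shares this small, a count of 0 among 10 genes does not set the clock genes apart. Ratios are means of log2 (arch over thoracic) from both arrays, and the value after ± says how far each array lies from its mean. The members ran from −0.23 ± 0.09 for Per1 to 0.05 ± 0.03 for the brightest probe of Per2, so the widest difference at a gene's brightest probe was 1.17-fold. The arrays are technical repeats of 1 pool per region and count as 1 replicate, so no difference here has a biological replicate check and no p-value is given. In pooled tissue, fewer cells of a type and less RNA per cell cannot be told apart.

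Signal set how well each member could be read. Background-subtracted spot signals ran from 12.4 units for the dimmer Cry1 probe to 12126 for Dbp. The 95th percentile of negative control spots was 14.2 (Cy5) and 34.9 (Cy3) for array 1 and 16.4 and 38.6 for array 2. Of the 18 probes 15 were well above background in both pools on both arrays, and 0 were saturated. The brighter Cry1 probe was well above background in the thoracic pool on both arrays but in the arch on array 2 only. The dimmer Cry1 probe and the dimmest of 4 Clock probes were not well above background in any channel and were left out of what follows, which leaves 16 probes and all 10 genes.

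**Figure D1:**
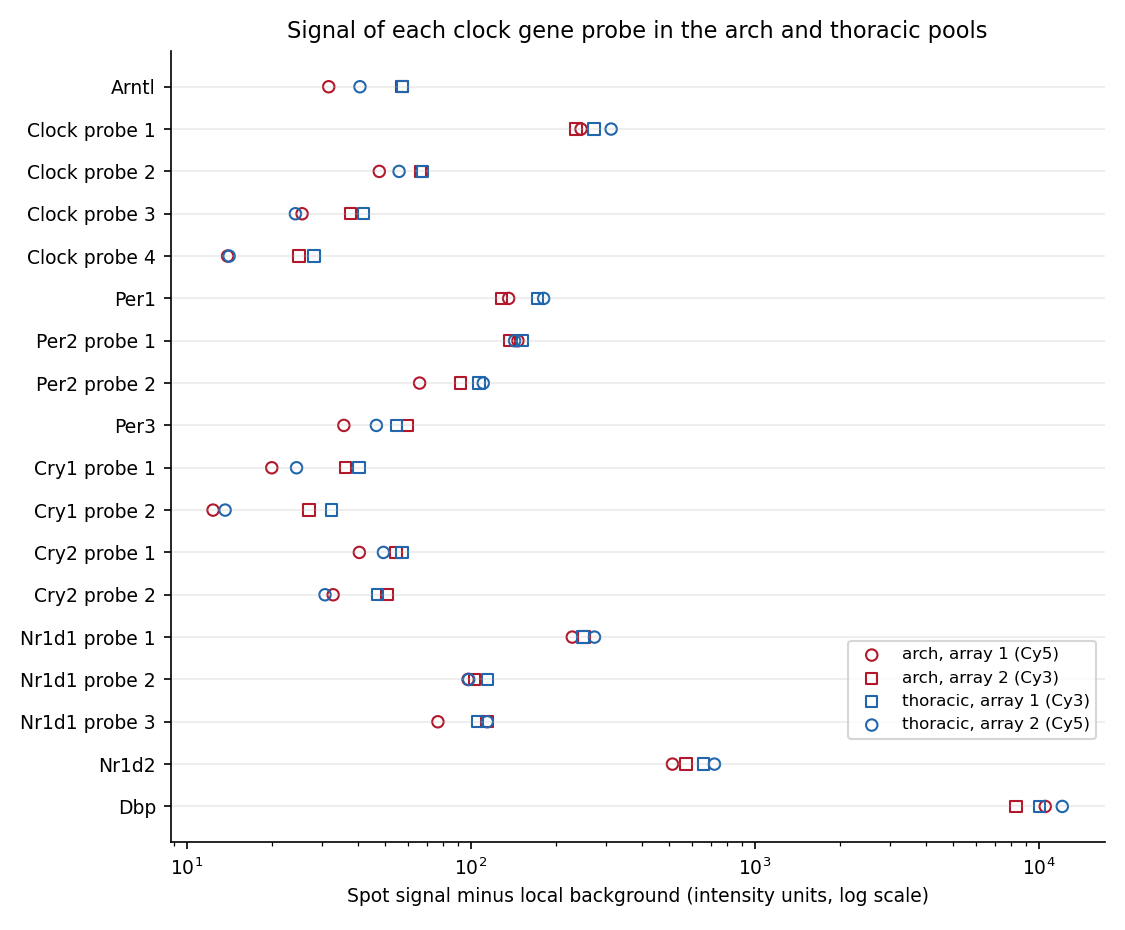
Spot signal minus local background (intensity units, log scale) of the 18 clock gene probes, numbered from brightest to dimmest within a gene. Red marks the arch and blue the thoracic pool, with circles for Cy5 and squares for Cy3. Dbp lies between 8335 and 12126 units, while all Cry1 and Cry2 signals lie between 12.4 and 57.2.

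In the activator limb, Clock, the DNA-binding partner of BMAL1, was read at its brightest probe at 245 and 235 units in the arch (arrays 1 and 2) and at 272 and 312 in the thoracic pool. Both arch signals were below both thoracic ones, as in 20.3% of all kept probes. The ratio was −0.05 on array 1 and −0.19 on array 2, a mean of −0.12 ± 0.07. The other kept Clock probes, at 24.1 to 67.8 units, gave −0.01 ± 0.04 and −0.0023 ± 0.0074, so the difference of the brightest probe was not seen at the dimmer ones. Arntl, the BMAL1 gene, measured 31.6 and 57.3 units in the arch and 57.5 and 40.8 in the thoracic pool. Its signals followed the dye rather than the region. The ratio changed sign between the arrays, −0.15 and 0.10, with a mean of −0.03 ± 0.12.

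In the repressor limb, the Period genes encode the proteins that carry the cryptochromes into the complex with CLOCK and BMAL1. Per1 measured 136 and 128 units in the arch and 172 and 181 in the thoracic pool, without overlap. Both arch signals lay below both thoracic ones in 20.3% of all kept probes. Per1 ratios were −0.14 and −0.32, a mean of −0.23 ± 0.09, and Per1 was the lowest of the 10 members at their brightest probes. Of all genes measured, 2.08% had a lower ratio, and 5.04% had a larger difference in either direction. The mean was −0.32 ± 0.12 when no offset was added to the background-corrected signal.

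Per2 gave opposite readings at its 2 probes, both named for the same transcript. The brighter probe measured 147 and 137 units in the arch and 152 and 143 in the thoracic pool, and its ratio was 0.08 and 0.02. The other probe measured 66.1 and 92.2 in the arch against 107 and 111, and its ratio was −0.28 and −0.20, a mean of −0.24 ± 0.04. That value was −0.39 ± 0.07 without the offset and −0.43 ± 0.11 in the scanner software's own ratio. The probes stood 0.29 apart on the log2 scale, more than the arrays did at either probe, and the array files give no probe sequence, so which transcript part each reads was not examined. Per3 measured 35.8 and 59.8 units in the arch and 54.8 and 46.6 in the thoracic pool, again ordered by dye, with a mean ratio of 0.01 ± 0.05.

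The cryptochromes, the direct inhibitors of CLOCK and BMAL1, were dim. Cry1 measured 19.9 and 36.3 units in the arch and 40.5 and 24.4 in the thoracic pool, and its ratio was −0.06 ± 0.01. It moved more than any other member over the 5 ways of processing plotted, with −0.22 ± 0.04 without the offset and −0.34 ± 0.16 in the scanner software's ratio, and 1 of its 4 channels was not well above background. Cry2 measured −0.04 ± 0.04 at its brighter probe and 0.09 ± 0.05 at the other. The scanner software's ratios widened this to −0.12 ± 0.05 and 0.29 ± 0.03, with opposite signs at the probes again.

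Of the REV-ERB genes, Nr1d2 had a lower mean ratio than Nr1d1, from 1 pool per region. Nr1d1, which encodes REV-ERB alpha, measured 228 and 250 units in the arch and 249 and 273 in the thoracic pool at its brightest probe, and its 3 probes gave 0.02 ± 0.04, 0.02 ± 0.03 and −0.06 ± 0.08. All 3 lay within the distance between the arrays. Nr1d2 measured 514 and 574 units in the arch and 662 and 722 in the thoracic pool, without overlap. That order of raw signals was shared by 20.3% of all kept probes. Nr1d2 ratios were −0.32 and −0.05, a mean of −0.18 ± 0.13, so most of that mean comes from array 1. Of all genes measured, 3.36% had a lower ratio than Nr1d2.

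Dbp, the output gene, gave the strongest spots of the 10 members. It measured 10562 and 8335 units in the arch and 10096 and 12126 in the thoracic pool. The raw signals overlap, but after the dye trend was removed the ratios were −0.10 on each array, a mean of −0.10 ± 0.0023, which is 1.07-fold. Of all genes measured 21.2% had a larger difference. With median centring in place of loess the mean of Dbp was −0.27 ± 0.19, with ratios of −0.08 and −0.46. Clock and Nr1d2 also had lower means, −0.26 ± 0.10 and −0.35 ± 0.08. The means of Per2, Per3 and Nr1d1 turned below 0, to −0.04, −0.0016 and −0.11.

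**Figure D2:**
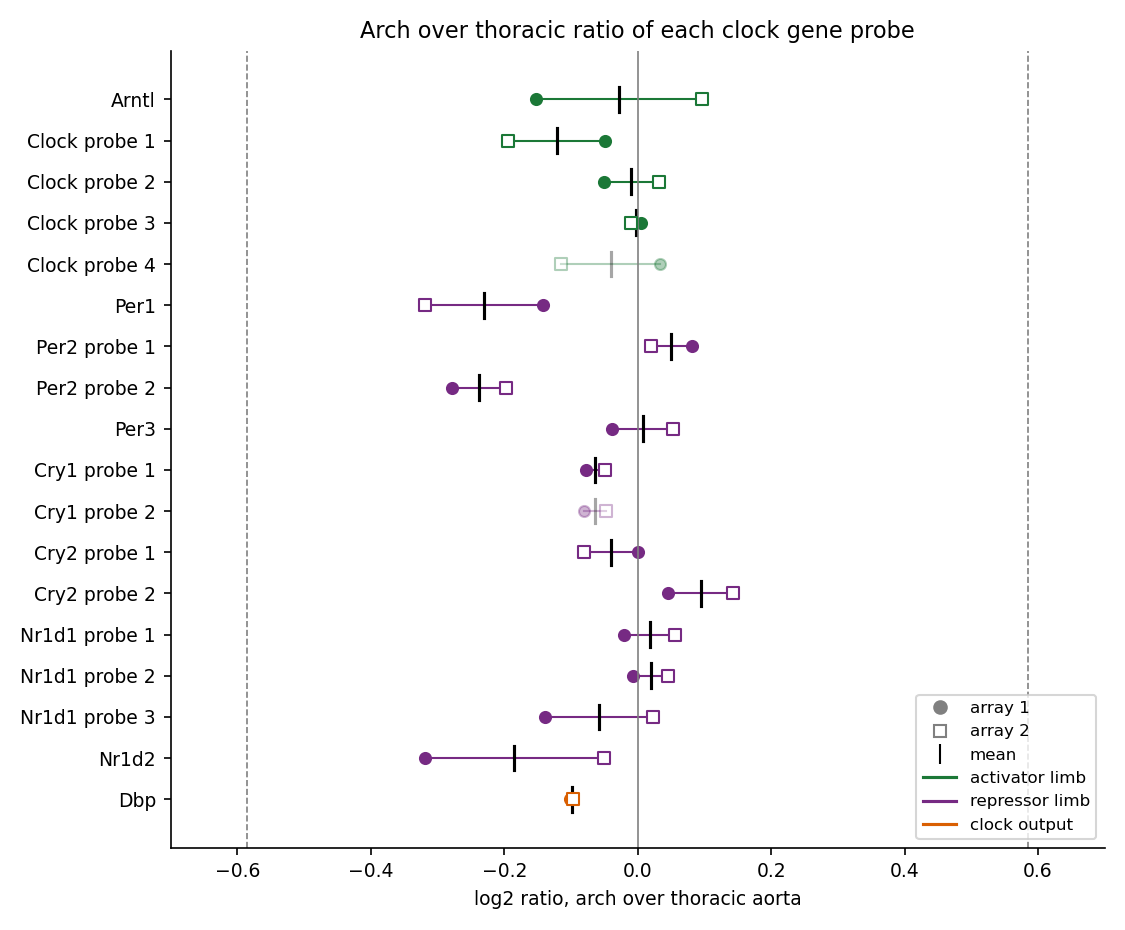
Log2 ratio of arch over thoracic aorta for the 18 clock gene probes on array 1 (filled circles) and array 2 (open squares), with the mean as a black bar and colours for the limbs. Pale probes were not well above background, and the dashed lines mark 1.5-fold; Per1, the second Per2 probe and Nr1d2 have the lowest means, and no point reaches a dashed line.

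Set side by side, the limbs had close medians. The median of the 2 activators was −0.07 (−0.10 on array 1 and −0.05 on array 2), and that of the 7 repressors −0.04 (−0.04 and −0.05), beside a median of 0.0023 for all genes measured. Repressors minus activators came to 0.06 on array 1, −0.00035 on array 2 and 0.03 between the medians of the means. The sign of this difference turned to −0.02 with the scanner software's ratios and to −0.03 when a gene's probes were averaged. Within the repressor limb the brightest probes ran from −0.23 for Per1 to 0.05 for Per2. The other Per2 probe, at −0.24, lay beside Per1, so the 2 genes are not set at opposite ends by every probe.

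More members leaned toward the thoracic pool than toward the arch, by small amounts. A ratio below 0 on each array was found in 6 of the 10 genes, Clock, Per1, Cry1, Cry2, Nr1d2 and Dbp, against 26.5% of all genes measured. Above 0 on each array was Per2 alone, at its brightest probe, against 28.4%, while Arntl, Per3 and Nr1d1 changed sign between the arrays. The other Per2 probe was below 0 on each array, at −0.28 and −0.20. With median centring the count below 0 was again 6, with Nr1d1 in place of Cry1, but the share of all genes rose to 47.2%. Per2 was then no longer above 0 on each array, which left 0 members there. The count of members below 0 was chosen after the values were seen, and it rests in part on Cry2, whose array 1 ratio was −0.00015. It also includes Cry1, whose probe passed the filter through the thoracic pool only, so its ratio is no support for a lean. With the filter on both regions, which drops Cry1, the count was 5 of 9. By probe, 7 of 16 were below 0 on each array and 2 above, against 27.6% and 26.1% of all kept probes. In raw signals, both arch signals lay below both thoracic ones in 4 of 16 member probes (the brightest Clock probe, Per1, the second Per2 probe and Nr1d2), near the 20.3% of all kept probes. Both lay above in 0 of 16, against 2.2%. The median size of a ratio over all genes was 0.04, and 93.1% lay within 0.2 of 0. By that measure 1 member, Per1, fell outside 0.2 at its brightest probe. The second Per2 probe, with a mean of −0.24, did so too.

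The wider clock was described with lists named alongside the members. Of 12 paralogs and genes of the second loop, 10 were measured and 0 called, with a median of −0.04, and 4 were below 0 on each array. The lowest were repressors or targets of the same loop. Nfil3, the repressor that competes with DBP at D-boxes, measured −0.30 ± 0.04 (−0.12 at another probe). Ciart, a repressor of CLOCK and BMAL1 also called Chrono, measured 145 and 165 units in the arch and 197 and 239 in the thoracic pool, a ratio of −0.29 ± 0.05. Bhlhe40, an E-box repressor also called Dec1, was −0.21 ± 0.07, and Tef, a relative of Dbp, −0.16 ± 0.07 at its brightest probe and up to 0.05 at others. Promoter windows of some genes of this list were searched as well, with no window for Bhlhe40. Ciart has 3 E-boxes before its start, the most of the clock genes searched, and Tef also has E-boxes. At least 1 E-box occurs in 7.15% of all windows. The Ciart stretch is shown for comparison with Per1 and Cry1, and any link between E-boxes and the ratios was not tested.
Ciart, chr3:95882249-95882358, minus strand, bases −130 to −21, 3 E-boxes: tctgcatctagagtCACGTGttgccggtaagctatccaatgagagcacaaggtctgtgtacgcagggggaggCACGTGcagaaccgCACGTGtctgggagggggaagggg

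Npas2 and Arntl2, the paralogs of Clock and Arntl, were not well above background in either region on both arrays. Of 18 kinases, ligases and partners of the clock proteins 17 were measured and 0 called, with a median of −0.05 and a range from −0.14 to 0.08. Usp2, a deubiquitinase that is itself rhythmic, was −0.14 ± 0.02, and Csnk1d, a casein kinase that phosphorylates PER proteins, −0.11 ± 0.0048. Wdr5, a chromatin protein found with PER complexes, was −0.10 ± 0.08, and Tipin, the partner of Timeless, −0.10 ± 0.09.

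Of 16 measured clock-controlled outputs 1 was called. Pdk4, a kinase that turns fuel use from glucose to fat, measured 275 and 285 units in the arch and 163 and 178 in the thoracic pool, and was 1.65-fold higher in the arch (0.73 ± 0.0011). The list's median was −0.05, with Tsc22d3 at −0.18 ± 0.01 and Tspan4 at −0.17 ± 0.0060. Pdk4 thus lay opposite to Ciart and Dbp. Fat cells also express Pdk4, and several fat markers moved with it: 4 of 9 brown and 2 of 8 white adipocyte markers were called higher in the arch, with medians of 0.41 and 0.31. Below 0 on each array were 3 brown markers and 1 white marker, down to −0.19 for Prdm16 and −0.25 for Retn, none of them called. Summed signals of the brown list were 10818 and 9763 in the arch and 6400 and 7993 in the thoracic pool, without overlap. Those of the white list were 27920 and 22481 against 18327 and 25228 and overlapped, and no marker of either list was at 0. Cardiomyocyte markers were also higher in the arch, with 3 of 7 called and Myl7 at 2.33 ± 0.01. Of these 7, 5 were above 0 on each array and 0 below. The part of fat or heart muscle cells in the Pdk4 value was not tested.

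**Figure D3:**
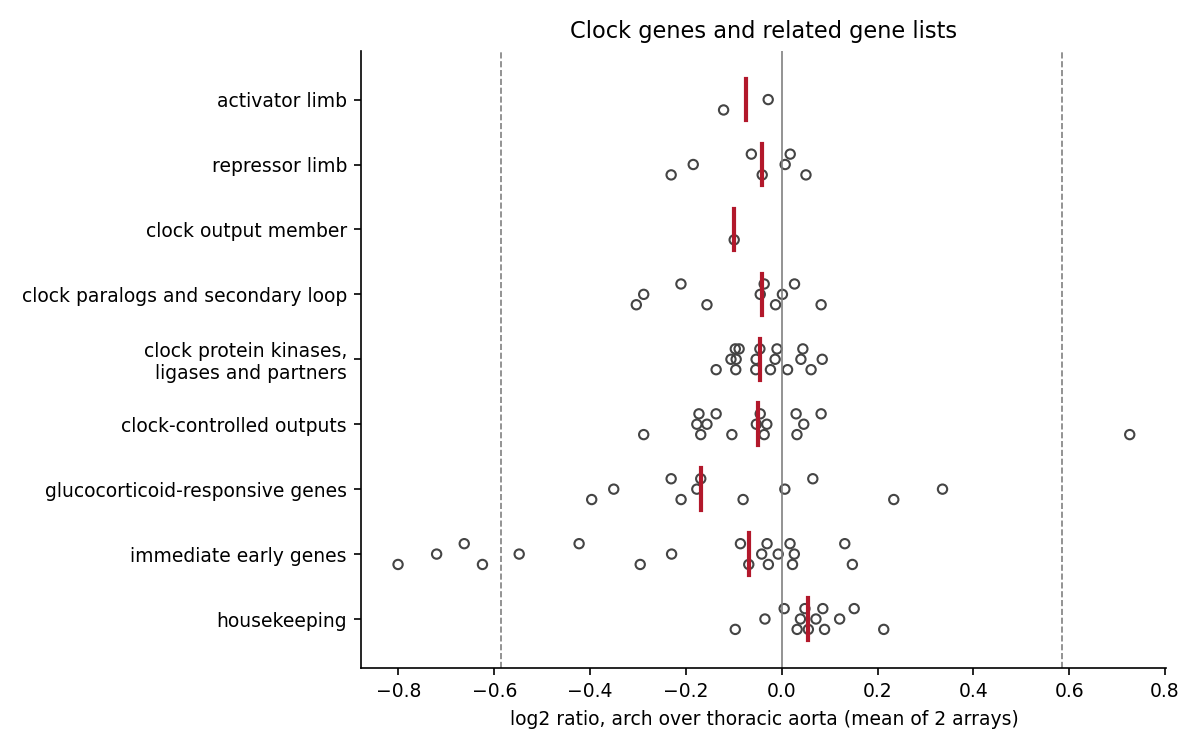
Mean log2 ratio of arch over thoracic aorta for each measured gene (circles) of the clock limbs and related lists, with each list's median as a red bar and dashed lines at 1.5-fold. Clock lists have medians between −0.10 and −0.04; Pdk4 at 0.73 is the right-most circle, and Btg2 at −0.80 the left-most.

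Per1 and Per2 also answer to signals outside the clock, glucocorticoids and the cyclic AMP factor CREB, and Per1 can be induced as fast as an immediate early gene. Values of these lists are therefore set beside theirs. Of 11 measured glucocorticoid-responsive genes, Per1 included, 0 were called, with a median of −0.17 and with Ddit4 at −0.40 ± 0.04, Dusp1 at −0.35 ± 0.22, Cebpd at 0.34 ± 0.01 and Mt2 at 0.23 ± 0.05. Of 19 immediate early genes 3 were called lower in the arch, Btg2, Nr4a2 (−0.72 ± 0.02) and Nr4a1 (−0.66 ± 0.01), while 10 were below 0 on each array and the median was −0.07. The CREB list, with Per1 and Per2 among its 9 measured genes, had 1 called lower, Nr4a1 again, a median of −0.0028 and Bdnf at 0.40 ± 0.01. Per1 was less low than Fos (−0.62 ± 0.07) on both arrays. Whether these signals had a part in the Per1 value was not tested.

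Smooth muscle markers, which define the labelled tissue, were all 8 measured, with Des at −0.22 ± 0.0062, Myh11 at −0.22 ± 0.03 and a median of −0.03. The endothelial list was dim in both pools, with sums of 370.2 and 484 against 417 and 385, a median of 0.06 and Vwf at 0.26 ± 0.02. Other medians were 0.41 for mesothelium, 0.28 for cardiomyocytes with 3 of 7 called higher, −0.16 for macrophages, 0.04 for adventitial fibroblasts, 0.05 for lymphocytes, 0.03 for nerve, −0.01 for skeletal muscle, −0.10 for blood and 0.06 for housekeeping genes. Only 3 blood genes were measured. Hba-a1 read 65246 units in the arch on array 1 and 65253 in the thoracic pool on array 2. Acta2 and Tagln lay within a few units of these. Saturation was counted for the clock probes only. Which of these cells gave the clock transcripts cannot be told apart in pooled wall RNA. The arrays' gene spots had median net signals of 39.2 to 55.9 units, and 71.3% to 81.5% of them per channel were well above background. The brightest probes of Arntl, Per3 and Cry1 were under their channel's median on array 1 in the arch.

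**Figure D4:**
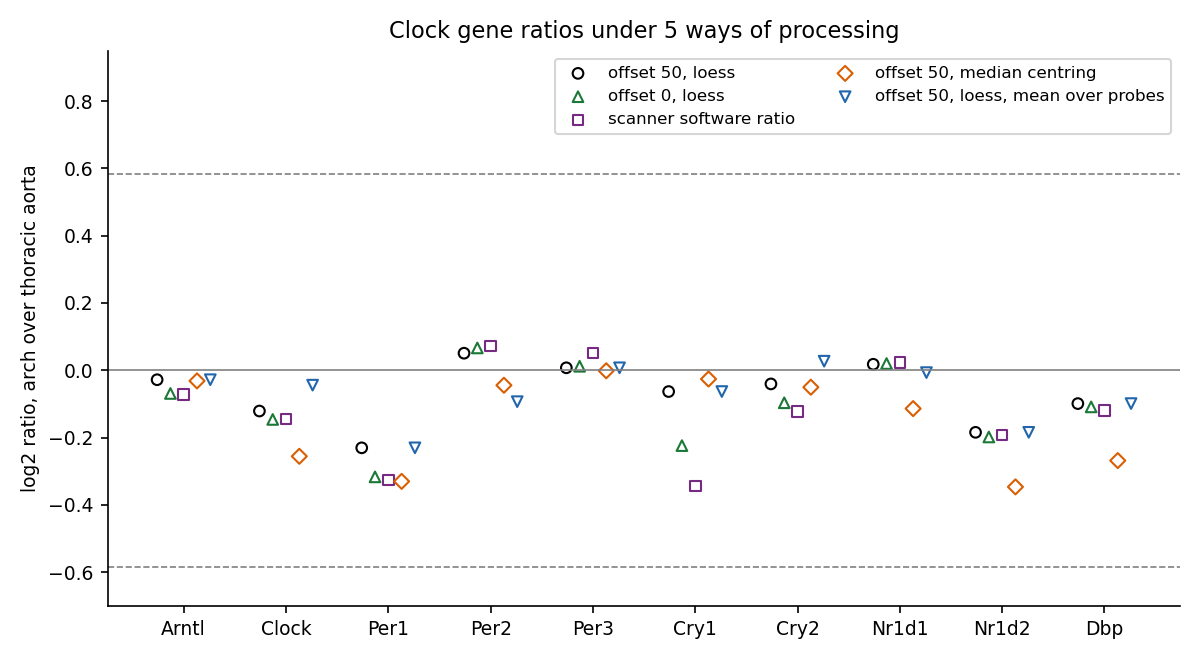
Log2 ratio of arch over thoracic aorta of the 10 clock genes (brightest kept probe, or mean of kept probes) under 5 ways of processing, with dashed lines at 1.5-fold. Per1 lies between −0.33 and −0.23 and Nr1d2 between −0.35 and −0.18, Cry1 spreads from −0.34 to −0.03, and none reaches a dashed line.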

How the data were processed

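Total RNA of 1 arch pool and 1 thoracic pool, each of 6 mice, with integrity numbers of 7.5 to 7.7, was labelled at 1 µg per dye, per the labels. The arrays were read in Feature Extraction (Agilent, 9.1.1.1), as the submitters' processing notes name it. Scanner files as deposited give each spot's mean signal and local background as an intensity per dye, 0 or 1 flags, and the log10 ratio of the software's processed signals, per the file headers. The series' value table deposited by the authors equalled that log10 ratio, as arch over thoracic, in 99.9% of 41174 features on each array (tolerance 1e-05, both medians 0); its scale and direction are not stated and come from this match. A genome build is not given in the sources used here for the array.

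Background was corrected by normexp (offset 50) and dyes by loess within each array, with control spots at weight 0, in limma 3.58.1 (R 4.3.3). The offset shrinks ratios of dim spots. Outlier spots (20 and 4) were left out and array 2 was turned to arch over thoracic. Of 41150 probes, 30520 passed in either region, meaning well above background on array 1 and array 2,, and a gene took its brightest such probe. Other symbols came from RefSeq (GRCm38.p6, names only): 23134 of 41534 gene spots matched by accession, 10302 by name or synonym, 8098 kept the file's name; no probe was added to a member. Reading uncertainty is given by the distance between arrays; their number limits the precision. The rules were run on simulated dye-swap arrays, whose outcome is not given here. That run was not a measure of how often a 1.5-fold difference in the dim members would be called. The members, lists and the naming rule (every member; up to 4 largest ratios per list, 2 per cell type) were chosen with earlier results of these data known. Alternatives were an offset of 0, the scanner's ratios, the value table, median centring, 2 other filters on dim probes, the mean over probes, names by table, 1.3-fold and 2-fold rules, and each array alone. 1 gene of the second-loop list is not reported here.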

Additional observations from a re-analysis of the deposited data

How the results depend on the processing

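No clock gene was called in either direction under any of the 12 alternatives. Under the 8 of them that use both arrays and the 1.5-fold rule, 5 or 6 members were below 0 on each array. With the filter on both regions, which drops Cry1, it was 5 of 9. The genes behind the count were not always the same. With median centring Cry1 left it (−0.058 and 0.0057) and Nr1d1 entered it (−0.13 and −0.10). As the mean over probes, Cry2 came to 0.027 and Per2 to −0.093. The share of all genes below 0 on each array was 26.5%, and 47.2% with median centring. The repressor median of −0.041 became −0.10 with an offset of 0, −0.12 with the scanner software's ratios and with the value table, −0.050 with median centring, −0.017 with the filter on both regions and −0.063 as the mean over probes. It was −0.049 on array 2 alone and −0.038 on array 1 alone. The activator median of −0.075 became −0.14 with median centring and −0.036 as the mean over probes, with −0.10 and −0.049 on the single arrays. Their difference of 0.034 became −0.015 with the scanner software's ratios and with the value table, 0.093 with median centring and −0.027 as the mean over probes, and was 0.063 and −0.00035 on the single arrays. The cause was not tested, apart from the offset, which shrinks dim ratios by construction. Median centring called 28 genes higher and 75 lower over all genes, in place of 55 and 49, a share of higher calls of 27.2% against 52.9%; an offset of 0 called 117 and 104, the scanner software's ratios 152 and 128. A 2-fold rule called 9 and 15 and a 1.3-fold rule 134 and 112. No paired analysis was possible because the 2 arrays are a dye swap of the same 2 pools. Signal over background limits Cry1, Cry2, Per3, Arntl and the dimmer Clock probes.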
